A study of Mus musculus with 9 samples.

Results

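Collagens are the triple-helical proteins of the extracellular matrix, and each gene of the family encodes 1 chain of such a helix. All genes with a symbol of the form Col, a type number, a and a chain number were taken as members, which gave 44 of the 18875 genes in the table. They were grouped into 11 fibrillar, 8 basement membrane, 9 FACIT and 16 other chains. FACIT stands for fibril-associated collagens with interrupted triple helices. The data are mRNA sequencing of whole lung from wild-type mice of the inbred strain BALB/c, in 9 libraries, 3 in each of 3 groups. Animals of the long-term group were given PM2.5 (fine particulate matter of the air) into the nose at 10 mg/kg, 6 times with 3 days between doses. Mice of the short-term group were given that dose 1 time. The PBS group is labelled as a long-term exposure to phosphate-buffered saline, so its duration is that of the long-term group, and no PBS group of short duration was analysed here. No group carries a transgene or a deleted gene per the labels, and how long after the last dose lungs were taken is not given there.

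Fibrillar chains of types I, III and V assemble into the cable-like fibrils that give the lung its tensile strength and that accumulate in fibrosis. Type IV chains form the sheet-like network of basement membranes under epithelium and endothelium; the alveolar wall and the kidney glomerulus carry a network made of the α3, α4 and α5 chains beside the general α1 and α2 network. FACIT chains sit on the surface of fibrils, type VI forms beaded filaments around cells, multiplexins such as types XV and XVIII lie in or next to basement membranes, and types XIII, XVII and XXIII are anchored in the plasma membrane. Most of these chains are made by fibroblasts and other mesenchymal cells, with endothelium and alveolar epithelium as further sources of basement membrane chains.

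The unit of the values is TPM, a share of all transcripts corrected for transcript length. TPM keeps no record of read number, so the depth is unknown. Members were tested where at least 3 libraries reached 1 TPM, which held for 28 of 44 members and 13991 of all genes. Tests were run with limma on log2(TPM + 1) over the 3 groups, with p-values adjusted by Benjamini-Hochberg across every tested gene and a threshold of 0.05. Fold changes are on that scale, which understates the change of low genes. Whether each sample of a group is a different mouse is not stated in the labels, so p-values reflect only the spread between samples, which may be technical.

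RefSeq windows from 250 bases before to 50 after the start site (GRCm38.p6) were found for 35 of the 44 members, in 38 windows, since a gene can have more than 1 start. Col1a1, Col5a2, Col4a3, Col12a1 and Col14a1 have no entry. The windows of 4 abundant chains are printed 5′ to 3′ because they cover a fibrillar pair that was higher after long-term PM2.5 and a basement membrane pair with a shared start region. Capitals mark the CCAAT box (CCAAT, read as ATTGG on the other strand) and the GC box (GGGCGG, read as CCGCCC on the other strand), searched on both strands.
Col1a2, chr6:4505368-4505667, plus strand: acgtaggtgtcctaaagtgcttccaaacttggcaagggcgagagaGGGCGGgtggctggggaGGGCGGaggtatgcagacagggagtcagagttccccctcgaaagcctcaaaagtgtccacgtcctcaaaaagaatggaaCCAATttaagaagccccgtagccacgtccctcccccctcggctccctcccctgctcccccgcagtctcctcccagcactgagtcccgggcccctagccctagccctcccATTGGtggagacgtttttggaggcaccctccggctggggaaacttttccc
Col3a1, chr1:45311288-45311587, plus strand: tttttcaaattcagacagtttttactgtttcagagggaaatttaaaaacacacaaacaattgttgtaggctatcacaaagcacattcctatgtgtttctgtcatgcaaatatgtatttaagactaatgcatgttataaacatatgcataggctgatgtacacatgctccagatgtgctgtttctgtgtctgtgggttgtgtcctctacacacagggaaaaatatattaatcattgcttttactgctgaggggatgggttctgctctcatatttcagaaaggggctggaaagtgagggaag
Col4a1, chr8:11312777-11313076, minus strand: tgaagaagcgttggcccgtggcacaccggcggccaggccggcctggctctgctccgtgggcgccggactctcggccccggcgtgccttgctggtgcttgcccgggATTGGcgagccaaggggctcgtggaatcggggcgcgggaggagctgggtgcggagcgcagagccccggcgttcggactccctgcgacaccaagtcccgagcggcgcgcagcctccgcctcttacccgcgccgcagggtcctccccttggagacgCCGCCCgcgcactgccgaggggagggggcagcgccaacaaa
Col4a2, chr8:11312555-11312854, plus strand: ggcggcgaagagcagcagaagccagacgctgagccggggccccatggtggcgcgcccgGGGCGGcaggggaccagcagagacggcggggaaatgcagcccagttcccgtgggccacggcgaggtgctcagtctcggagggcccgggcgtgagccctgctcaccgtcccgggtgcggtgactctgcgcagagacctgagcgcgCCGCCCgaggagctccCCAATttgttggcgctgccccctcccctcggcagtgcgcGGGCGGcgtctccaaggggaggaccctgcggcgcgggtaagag
The Col1a2 window held 2 CCAAT and 2 GGGCGG matches, and the Col3a1 window held neither but had TATAAA from base 134 of the window. In the Col4a1 window 1 match of each motif was found, and in the Col4a2 window 1 CCAAT and 3 GGGCGG. The marked matches do not overlap each other. Col4a1 and Col4a2 are read in opposite directions with start sites 21 bases apart, and their windows share 78 bases (chr8:11312777-11312854), so the GC box near the end of each is the same site read on either strand. Over all 38 collagen windows CCAAT was present in 34.2%, GGGCGG in 60.5% and TATAAA in 13.2%, against 37.4%, 35.7% and 13.6% of the 32851 windows of all genes.

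Ordered by their mean over all 9 libraries, the most abundant chains were Col4a1, Col4a2, Col3a1, Col1a1, Col1a2, Col6a1, Col6a2 and Col13a1. These 8 members averaged at least 100 TPM and took 83.0% to 83.5% of all collagen TPM in long-term libraries, 86.1% to 86.8% in short-term libraries and 80.8% to 81.9% in PBS libraries. A further 10 members averaged between 10 and 100 TPM, and 16 stayed under 1 TPM in every library. The summed collagen TPM was 2340, 2463 and 2034 in the long-term libraries, 1125, 1802 and 1612 in the short-term libraries and 2293, 2091 and 2164 in PBS libraries. The long-term sums lay on both sides of the PBS sums, and all short-term sums were below both. As a log2 ratio of group means, long-term PM2.5 against PBS was 0.06 (exact permutation test, two-sided, p = 0.6) and short-term PM2.5 against PBS -0.53 (p = 0.1, the smallest that 3 against 3 libraries allow), which the correction for length and GC content described further on turned to 0.085 (exact p = 0.5). In whole tissue, fewer cells of a type and less RNA per cell cannot be told apart.

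**Figure D1:**
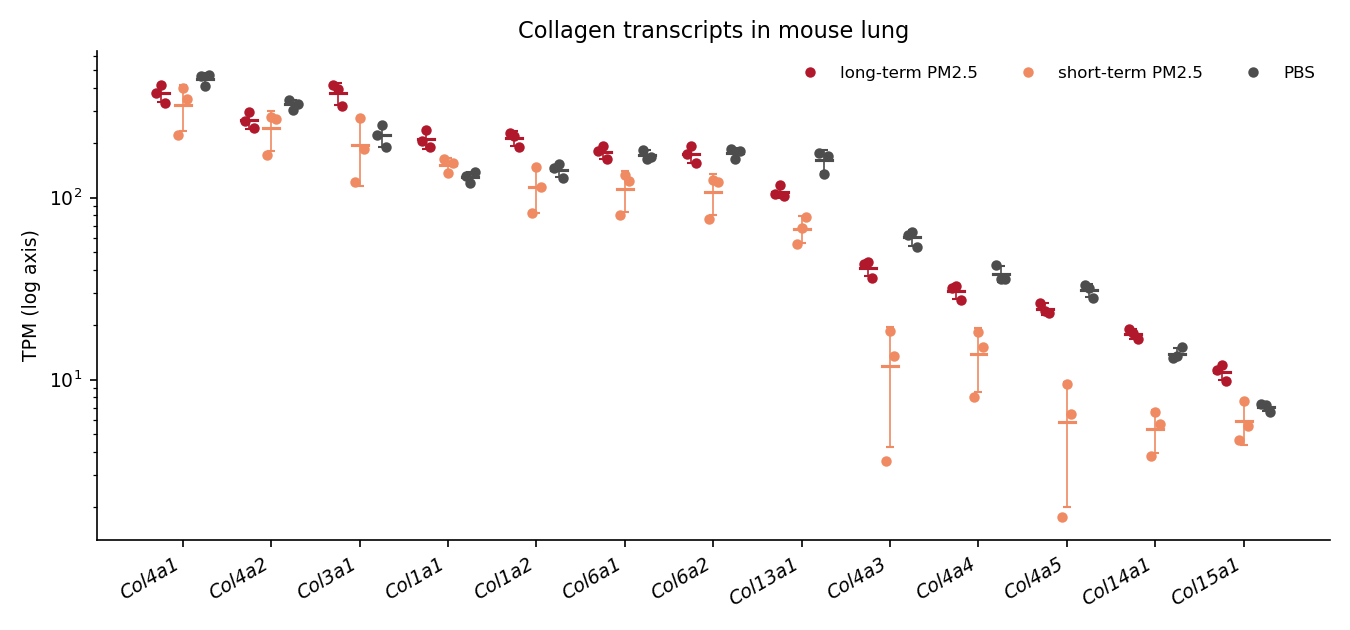
TPM on a log axis of 13 collagen genes, ordered by mean; each point is 1 library, with long-term PM2.5, short-term PM2.5 and PBS side by side, and bars give the mean and SD (n = 3). The long-term points of Col1a1, Col1a2, Col3a1, Col14a1 and Col15a1 lie above all PBS points, and the short-term points of Col4a3, Col4a4 and Col4a5 lie far below both other groups.

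The composition of the collagen transcripts differed between the groups more clearly than their sum did. Fibrillar chains made up 39.8%, 37.9% and 37.7% of collagen TPM in long-term libraries, 35.02%, 33.5% and 30.9% in the short-term libraries and 25.1%, 27.97% and 24.3% in PBS libraries. No library of either PM2.5 group overlapped PBS in this share. Basement membrane chains made up 33.8%, 35.02% and 34.8% after long-term PM2.5, 39.7%, 42.9% and 43.1% after short-term PM2.5 and 43.6%, 42.7% and 44.5% with PBS. The long-term share was below every other library, and the short-term range overlapped that of PBS. FACIT chains took 1.66% to 2.79% in all 9 libraries, and the other chains 24.1% to 24.98% after long-term PM2.5, 21.9% to 23.8% after short-term PM2.5 and 26.8% to 28.7% with PBS. In TPM, the fibrillar sum was 877 ± 95.6 after long-term PM2.5 and 562 ± 31.9 with PBS (SD, n = 3 each; log2 ratio 0.64, exact p = 0.1). Basement membrane chains summed to 787 ± 77.6 TPM after long-term PM2.5 and 952 ± 54.1 TPM with PBS (log2 ratio -0.27, exact p = 0.1). After short-term PM2.5 the fibrillar sum was 498 ± 105 TPM, with a log2 ratio to PBS of -0.17 (exact p = 0.4), so the higher share came with no higher sum as deposited.

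**Figure D2:**
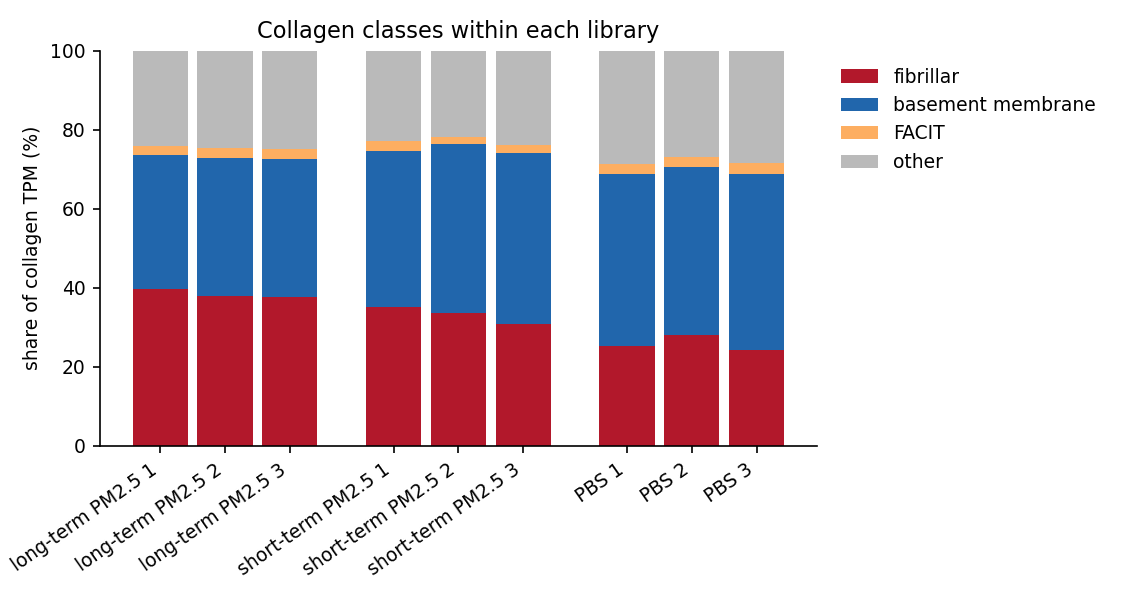
Share of summed collagen TPM (%, vertical axis) taken by the 4 classes in each of the 9 libraries, 1 stacked bar per library. Fibrillar chains take 37.7% to 39.8% in long-term libraries, 30.9% to 35.02% in short-term libraries and 24.3% to 27.97% in PBS libraries.

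Collagen transcripts are long, and the short-term libraries differed from the rest by transcript length across all genes. The tested collagens had a median length of 5989 nt, against 3051 nt for all tested genes, and 23 of 28 were as long as or longer than 5020 nt, a length that most genes do not reach. Relative to the PBS mean, the median of genes of 5020 nt or more minus that of genes of 1730 nt or less was -0.13, -0.20 and -0.16 (log2) in the long-term libraries, -1.43, -0.65 and -0.87 in the short-term libraries and -0.051 to 0.042 in PBS libraries. Short-term replicate 1 stood farthest out and had the lowest TPM of its group in 23 of the 28 tested collagens. For this reason most changes are given as deposited and after a correction that removed from each library its smooth trend with transcript length and GC content (13761 genes with a known length). After it the same difference was -0.015 to 0.070 in all 9 libraries. The correction turned the direction of 3 sums in short-term PM2.5 against PBS, to a log2 ratio of 0.085 (exact p = 0.5) for all collagens, 0.45 (exact p = 0.1) for fibrillar chains and 0.11 (exact p = 0.7) for basement membrane chains. For long-term PM2.5 against PBS the same corrected ratios were 0.12 (exact p = 0.3), 0.68 (exact p = 0.1) and -0.16 (exact p = 0.1), with the signs of the deposited values. Across the 28 tested collagens, which are not independent replicates, the change after short-term PM2.5 against PBS had a Pearson r of -0.40 with log10 length as deposited and -0.21 after the correction, and of 0.52 and 0.46 with GC content.

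**Figure D3:**
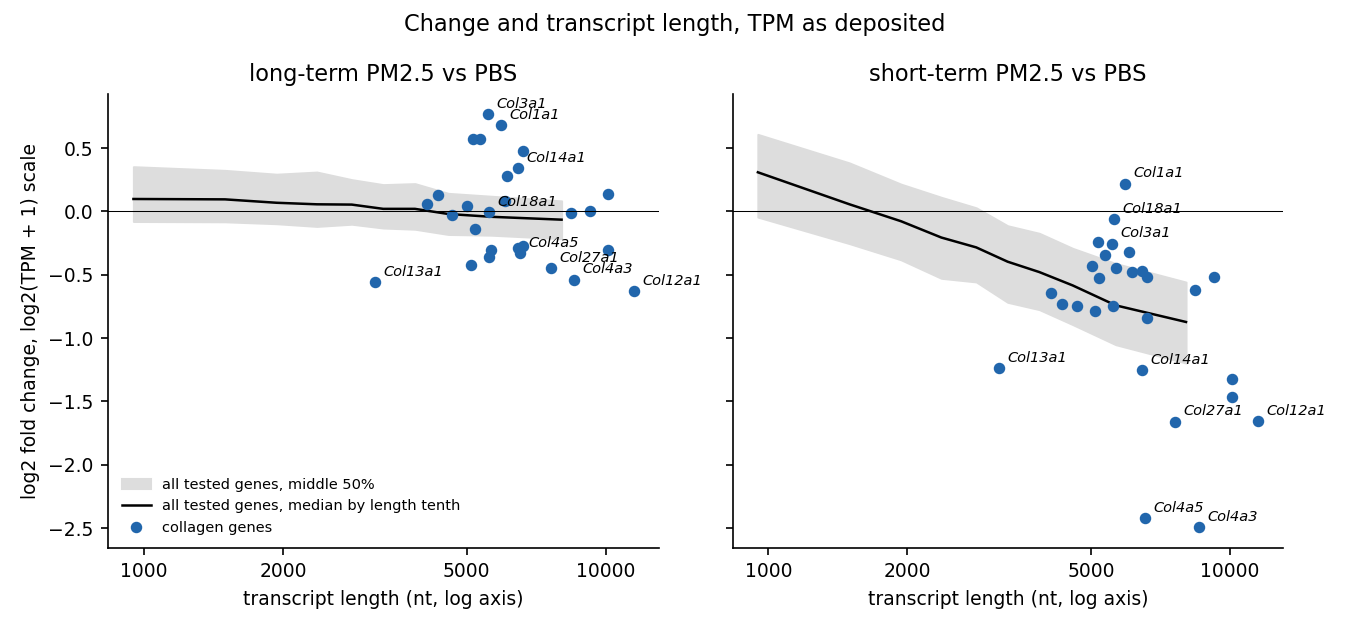
Log2 fold change as deposited (vertical axis) against the length of the transcript in nt (log axis) for 28 collagen genes (points), for long-term PM2.5 vs PBS (left) and short-term PM2.5 vs PBS (right); the line is the median of all tested genes by bin of length and the band their middle 50%. For short-term PM2.5 the median falls with length, to -0.87 in the longest bin, and Col4a3, Col4a5, Col27a1, Col12a1 and Col13a1 lie below the band, with Col1a1 and Col18a1 among the genes above it.

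The first comparison, of long-term PM2.5 with PBS, addresses what repeated dosing changed. After correction for transcript length and GC content, both type I chains, the type III chain and Col5a2 and Col5a3 of type V were higher, and Col13a1 of the membrane-anchored type XIII and Col12a1 of the FACIT type XII were lower. As deposited, 1 of 28 tested collagens passed the test upward, against 9.51% of all tested genes, and 1 downward, against 1.72% (11.2% in either direction). With the length and GC correction 7 were higher and 4 lower, against 13% and 12.8% of all genes (25.8% in either direction). With the 2 groups fitted alone, so that the uneven short-term libraries did not enter the estimate of the spread, 6 were higher and 8 lower, against 17.9% and 9.87% of all genes. Without short-term replicate 1 in the fit, 6 were higher and 6 lower, against 15.4% and 7.21% of all genes, and corrected 7 and 8, against 15.8% and 20.9%. The median change of the 28 was -0.01 as deposited and 0.07 corrected, against 0.03 and -0.07 for all genes. All long-term libraries lay above all PBS libraries for 7 collagens, against 25.9% of all tested genes, and below them for 9, against 17.4%.

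Col1a1 and Col1a2 encode the α1 and α2 chains of type I collagen, the main fibril-forming collagen of connective tissue. Col1a1 was at 203, 236 and 189 TPM in long-term libraries and 131, 119.9 and 138 TPM in PBS libraries. It was higher in each long-term library than in any PBS library, with a log2 fold change of 0.68 ± 0.12 (SE; limma adjusted p = 0.0043) as deposited and 0.79 ± 0.11 (limma adjusted p = 0.00078) corrected. It kept its call without any 1 library. Col1a2 was at 228, 217 and 189 TPM after long-term PM2.5 and 145, 152 and 128 TPM with PBS. The groups did not overlap here either, and the change was 0.57 ± 0.19 (limma adjusted p = 0.082) as deposited and 0.60 ± 0.13 (limma adjusted p = 0.0084) corrected.

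Col3a1, the chain of type III collagen, which forms fibrils together with type I in extensible tissues, had the largest difference in TPM. It was at 416, 394 and 318 TPM in long-term libraries and 222, 249.9 and 189.7 TPM in PBS libraries, again without overlap. The change was 0.77 ± 0.25 (limma adjusted p = 0.082) as deposited and 0.76 ± 0.17 (limma adjusted p = 0.0077) corrected. Type V collagen regulates the diameter of these fibrils. Its chain gene Col5a2 was at 44.6, 43.1 and 36.2 TPM after long-term PM2.5 and 32.2, 28.3 and 27.5 TPM with PBS, and Col5a3 was at 4.2, 4.26 and 3.96 TPM after long-term PM2.5 and 3.47, 2.87 and 3.38 TPM with PBS. Both passed only after the correction for length and GC content (Col5a2 0.49 ± 0.12, limma adjusted p = 0.014; Col5a3 0.44 ± 0.11, limma adjusted p = 0.016), and each lost that call without 1 of several libraries (highest limma adjusted p 0.055 and 0.070). With correction for length alone Col5a3 was at 0.29 and not called (limma adjusted p = 0.21).

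The third chain gene of type V, Col5a1, did not move with the other two: it was at 25.5, 27.5 and 21.2 TPM after long-term PM2.5 and 28.8, 21.4 and 24.6 TPM with PBS, with overlapping groups and a change of -0.01 ± 0.16 as deposited (limma adjusted p = 0.99) and 0.12 ± 0.11 corrected (limma adjusted p = 0.47). Col11a2, a chain of type XI collagen, which is best known from cartilage, was between 1.19 and 1.83 TPM in both groups. Col27a1, a fibrillar chain also described mainly in cartilage, was at 6.74, 8.91 and 7.42 TPM after long-term PM2.5 and 11.8, 8.64 and 12.3 TPM with PBS. Its change was -0.45 ± 0.20 as deposited (limma adjusted p = 0.22) and -0.31 ± 0.13 corrected (limma adjusted p = 0.10). The fibrillar class held members with opposite signs, 6 above 0 and 2 below as deposited.

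On GRCm38.p6, Col3a1 (gene 12825) lies on chromosome 1 from 45311538 to 45349706 and Col5a2 (12832) on the same chromosome from 45374331 to 45503282, next to it. Col1a1 (12842) lies on chromosome 11 from 94936224 to 94953042, and Col1a2 (12843) on chromosome 6 from 4505618 to 4541543. Col13a1 (12817) lies on chromosome 10 from 61838234 to 61979206. Neighbours on a chromosome include Col3a1 and Col5a2, which were both higher after long-term PM2.5 in the corrected values, while the type I genes are on separate chromosomes.

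Among basement membrane chains, only the multiplexin Col15a1, a chain found between basement membranes and the fibrils next to them, passed the test upward, and only in the corrected values. It was at 11.3, 12.0 and 9.82 TPM after long-term PM2.5 and 7.35, 7.27 and 6.68 TPM with PBS, without overlap (0.57 ± 0.18, limma adjusted p = 0.071 as deposited; 0.61 ± 0.12, limma adjusted p = 0.0040 corrected). Its relative Col18a1, whose C-terminal fragment is endostatin, was at 41.1, 40.5 and 36.3 TPM after long-term PM2.5 and 44.5, 35.4 and 39.0 TPM with PBS. These groups overlapped, and the change was -0.01 ± 0.12 as deposited and 0.12 ± 0.10 corrected, neither of which passed.

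No type IV chain passed the test after long-term PM2.5, as deposited or corrected, although 4 of the 5 tested ones were below PBS in every library. Col4a2 was at 262, 295 and 242 TPM after long-term PM2.5 and 342, 305 and 328 TPM with PBS. Col4a1, its partner in the general network, was at 375, 414 and 333 TPM after long-term PM2.5 and 467, 412 and 472 TPM with PBS, with 1 pair of libraries overlapping. Col4a3 was at 43.2, 44.3 and 36.3 TPM after long-term PM2.5 and 62.7, 64.8 and 53.7 TPM with PBS. The 5 changes ran from -0.54 to -0.27 as deposited, with limma adjusted p from 0.41 to 0.74, and from -0.51 to -0.14 corrected, with limma adjusted p from 0.13 to 0.50. With the 2 groups fitted alone, Col4a2, Col4a3, Col4a4 and Col4a5 passed downward (limma adjusted p from 0.0045 to 0.047).

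FACIT and transmembrane chains differed in direction. Col14a1, which binds fibril surfaces, was at 18.9, 18.0 and 16.7 TPM after long-term PM2.5 and 13.2, 13.5 and 15.0 TPM with PBS. It did not overlap between the groups, with 0.34 ± 0.18 as deposited (limma adjusted p = 0.31) and 0.35 ± 0.08 corrected (limma adjusted p = 0.012), a call lost without PBS replicate 1 (limma adjusted p = 0.059). Col12a1, a larger FACIT chain, was at 4.57, 5.65 and 5.03 TPM after long-term PM2.5 and 9.49, 8.39 and 7.44 TPM with PBS, the lowest fold of all tested collagens (-0.63 ± 0.19, limma adjusted p = 0.058 as deposited; -0.60 ± 0.12, limma adjusted p = 0.0054 corrected). Both are fibril-associated, and their changes had opposite signs.

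Col13a1, a transmembrane collagen of cell-matrix junctions, was at 105, 117 and 102 TPM after long-term PM2.5 and 176, 135 and 169.6 TPM with PBS. It fell as deposited (-0.56 ± 0.15, limma adjusted p = 0.039) and corrected (-0.56 ± 0.11, limma adjusted p = 0.0044), and the as-deposited call was lost without any of 5 libraries (highest limma adjusted p 0.17). The other transmembrane chain with a corrected call, Col23a1, was at 36.9, 38.1 and 32.8 TPM after long-term PM2.5 and 49.1, 41.8 and 43.3 TPM with PBS (-0.28 ± 0.09, limma adjusted p = 0.036). The short-chain Col8a1, a network collagen of vessel walls, was at 2.63, 2.49 and 2.20 TPM after long-term PM2.5 and 4.74, 2.99 and 3.25 TPM with PBS (-0.45 ± 0.13 corrected, limma adjusted p = 0.029). Without 1 of several libraries Col23a1 and Col8a1 lost these calls. The type VI chains Col6a1, Col6a2 and Col6a3 were at 0.06, -0.03 and 0.14 as deposited and at 0.06, -0.01 and 0.20 corrected, none of which passed.

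**Figure D4:**
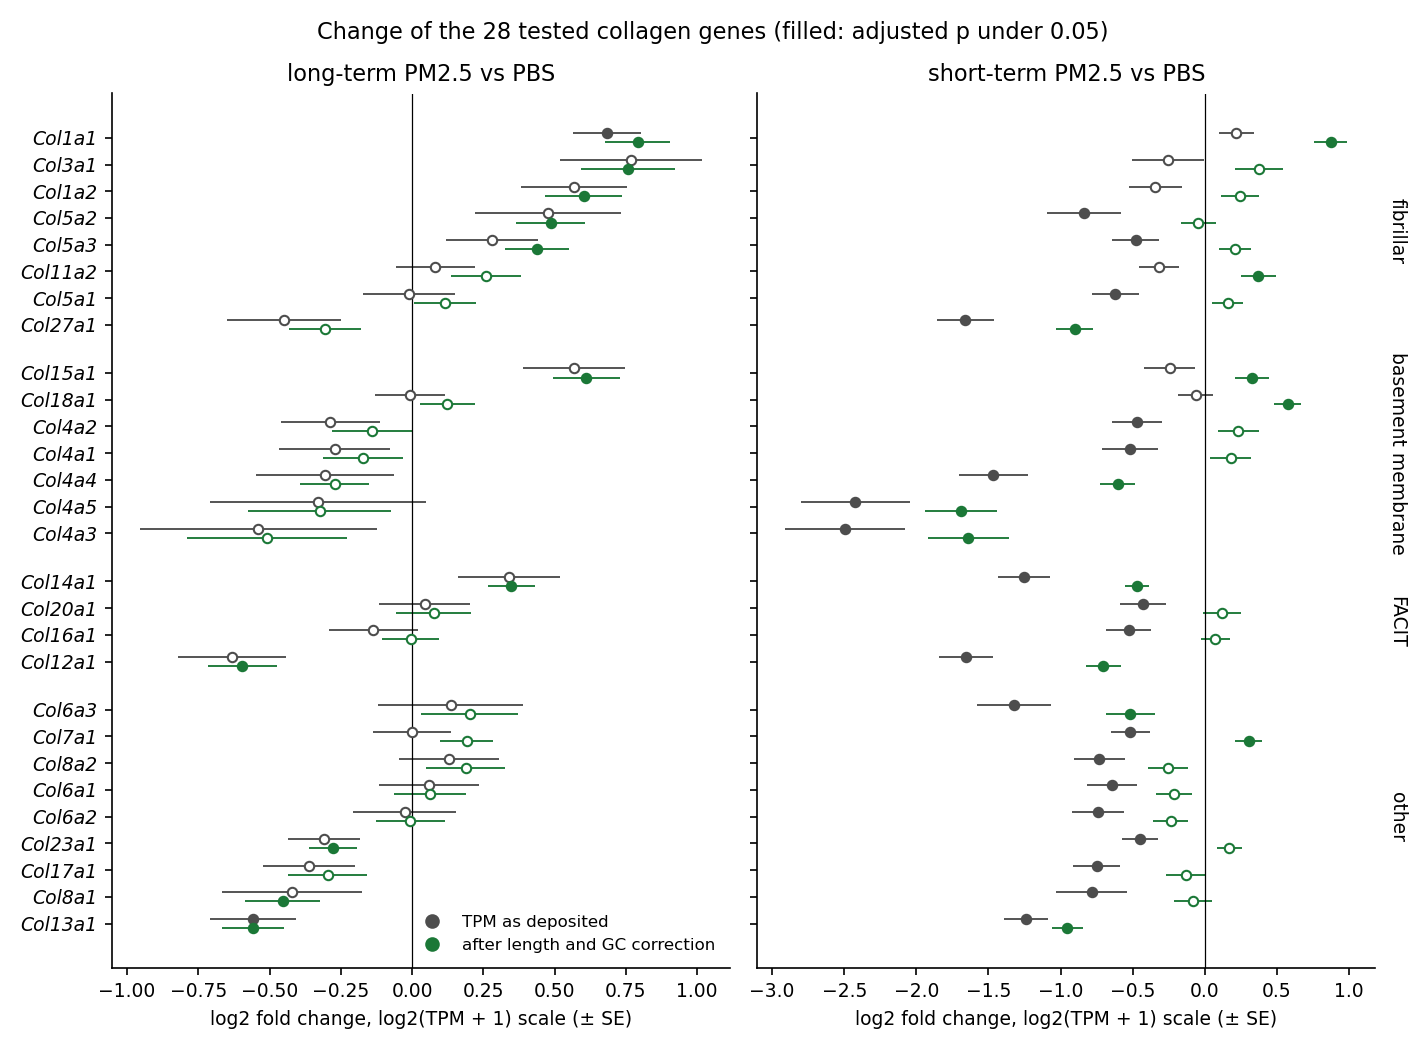
Log2 fold change ± SE on the log2(TPM + 1) scale of the 28 tested collagen genes, grouped by class, for long-term PM2.5 vs PBS (left) and short-term PM2.5 vs PBS (right; wider axis), as deposited (grey) and after the length and GC correction (green); filled points passed an adjusted p of 0.05. In the left panel the grey and green points lie close together, and in the right panel the correction shifts every gene upward, to 5 higher and 8 lower calls.

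The second comparison, of short-term PM2.5 with PBS, addresses what 1 dose changed. As deposited, 22 of 28 tested collagens fell and 0 rose, against 40.3% and 11.7% of all tested genes (51.9% in either direction). All short-term libraries lay below all PBS libraries for 22 collagens, against 45.8% of all genes, and above them for 0, against 14.5%. After the length and GC correction 8 were lower and 5 higher, against 26% and 23.6% of all genes (49.6% in either direction), and the median change was 0.01, against -0.63 as deposited (all genes -0.02 and -0.34). All 8 corrected decreases had also passed as deposited, while 0 of the 5 corrected increases had. Without short-term replicate 1 the counts were 19 lower and 0 higher as deposited, against 37.7% and 13.9% of all genes, and 8 lower and 9 higher corrected, against 24.3% and 22.2%. Without PBS replicate 1, 13 collagens were lower and 0 higher as deposited, against 27.9% and 8.73% of all genes.

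Col4a3 and Col4a5, chains of the alveolar and glomerular type IV network, had the deepest decreases of the tested collagens, as deposited and corrected, and Col4a4 of the same network fell less. Col4a3 was at 3.56, 18.4 and 13.5 TPM in the short-term libraries and 62.7, 64.8 and 53.7 TPM in PBS libraries. Col4a5 was at 1.75, 9.42 and 6.45 TPM after short-term PM2.5 and 33.1, 32.0 and 28.2 TPM with PBS. In both genes the highest short-term library was below every PBS library by more than the range of the PBS group. Their changes were -2.49 ± 0.42 (limma adjusted p = 0.0013) and -2.42 ± 0.38 (limma adjusted p = 0.00098) as deposited, and -1.64 ± 0.28 (limma adjusted p = 0.00093) and -1.69 ± 0.25 (limma adjusted p = 0.00040) corrected, in that order of genes. Col4a4 was at 7.99, 18.3 and 15.1 TPM after short-term PM2.5 and 42.5, 35.9 and 35.8 TPM with PBS (-1.47 ± 0.24, limma adjusted p = 0.0012 as deposited; -0.60 ± 0.12, limma adjusted p = 0.0023 corrected). All 3 were lowest in short-term replicate 1, and all 3 kept their as-deposited and corrected calls without any 1 library.

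Col4a1 and Col4a2, the general type IV chains, behaved differently from these. Col4a1 was at 221, 401 and 348 TPM after short-term PM2.5 and 467, 412 and 472 TPM with PBS, and Col4a2 at 171, 278 and 269 TPM after short-term PM2.5 and 342, 305 and 328 TPM with PBS. As deposited they passed narrowly (-0.52 ± 0.19, limma adjusted p = 0.045 and -0.47 ± 0.17, limma adjusted p = 0.044), and most fits without 1 library lost the call (highest limma adjusted p 0.12 for each). In corrected values they were at 0.18 ± 0.14 and 0.23 ± 0.14, neither of which passed. Corrected without short-term replicate 1, both passed upward, and with correction for length alone Col4a2 did. On chromosome 1, Col4a3 (gene 12828, 82586921 to 82722059) and Col4a4 (12829, 82448419 to 82587034) lie head to head, as Col4a1 and Col4a2 do on chromosome 8. Their annotated spans overlap at the starts, and whether the authors counted reads by strand is not given, so reads from that stretch could not be assigned by strand here.

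Of the other chains that fell in both versions, Col27a1 was at 1.95, 3.30 and 3.11 TPM after short-term PM2.5 and 11.8, 8.64 and 12.3 TPM with PBS (-1.66 ± 0.20 as deposited, -0.90 ± 0.13 corrected, limma adjusted p = 0.00030 and 0.00029). Col12a1 was at 1.28, 2.41 and 2.41 TPM after short-term PM2.5 and 9.49, 8.39 and 7.44 TPM with PBS (-1.66 ± 0.19 and -0.70 ± 0.12). Col13a1 was at 55.7, 68.0 and 78.7 TPM after short-term PM2.5 and 176, 135 and 169.6 TPM with PBS (-1.24 ± 0.15 and -0.95 ± 0.11). Col13a1 has the shortest transcript of the 28, 3162 nt, and its decrease moved least with the correction among these 8. Col6a3, the long chain of type VI filaments, was at 9.70, 22.9 and 19.7 TPM after short-term PM2.5 and 46.2, 43.8 and 38.3 TPM with PBS (-1.32 ± 0.26 and -0.52 ± 0.17). Col14a1 was at 3.80, 6.60 and 5.69 TPM after short-term PM2.5 and 13.2, 13.5 and 15.0 TPM with PBS (-1.25 ± 0.18 and -0.47 ± 0.08). The corrected call of Col6a3 was lost without PBS replicate 1 or 2 (highest limma adjusted p 0.088).

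Col1a1 was the exception among the abundant chains. It was at 162, 137 and 154 TPM after short-term PM2.5 and 131, 119.9 and 138 TPM with PBS, a change of 0.22 ± 0.12 as deposited (limma adjusted p = 0.14). After the correction it was at 235, 177 and 191 TPM in short-term libraries and 106, 109 and 111 TPM in PBS libraries, and rose by 0.87 ± 0.11 (limma adjusted p = 0.00019), a call it kept without any 1 library. Col18a1 was at 36.0, 39.7 and 37.5 TPM after short-term PM2.5 and 44.5, 35.4 and 39.0 TPM with PBS as deposited, which overlapped. Its corrected values were 49.97, 52.9 and 45.7 TPM after short-term PM2.5 and 35.7, 32.4 and 30.8 TPM with PBS, and it rose by 0.57 ± 0.10 (limma adjusted p = 0.00082). Col11a2, Col15a1 and Col7a1, the chain of the anchoring fibrils of squamous epithelium, had smaller corrected increases (0.37, 0.33 and 0.30). After short-term PM2.5 the deposited level of Col11a2 was 1.26, 0.860 and 0.980 TPM and that of Col15a1 4.64, 7.67 and 5.55 TPM, both overlapping PBS. Each of these 3 corrected increases lost the call without 1 of 2 or 3 libraries, and each was below 0 as deposited. Col3a1, at 121, 275 and 185 TPM after short-term PM2.5 and 222, 249.9 and 189.7 TPM with PBS, and Col1a2, at 82.2, 146 and 115 TPM after short-term PM2.5 and 145, 152 and 128 TPM with PBS, did not pass in either version. Other fits called them in opposite directions. Both passed upward with correction for length alone, and in corrected values without short-term replicate 1. Both passed downward as deposited without short-term replicate 2.

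The remaining as-deposited decreases after short-term PM2.5, from -0.84 in Col5a2 to -0.43 in Col20a1, were found in Col5a1, Col5a2, Col5a3, Col6a1, Col6a2, Col7a1, Col8a1, Col8a2, Col16a1, Col17a1, Col20a1 and Col23a1 beside the type IV pair described above. None of these 12 passed downward after the correction, with corrected values from -0.26 to 0.30, and 7 of them lost the deposited call without at least 1 library. Col7a1 was at 2.22, 2.84 and 2.66 TPM after long-term PM2.5, 1.44, 1.41 and 1.63 TPM after short-term PM2.5 and 2.70, 2.20 and 2.82 TPM with PBS. Col16a1, a FACIT chain, was at 25.8, 32.1 and 24.3 TPM after long-term PM2.5, 20.3, 18.0 and 23.5 TPM after short-term PM2.5 and 31.6, 26.4 and 32.3 TPM with PBS. In both genes the short-term libraries were below all others and the long-term and PBS libraries overlapped. Col17a1, a transmembrane chain of hemidesmosomes, was at 2.12, 2.32 and 2.20 TPM after long-term PM2.5, 1.18, 1.59 and 1.63 TPM after short-term PM2.5 and 2.37, 3.24 and 3.92 TPM with PBS. Its long-term libraries lay between the other groups without overlap. Col8a2, the partner of Col8a1 in type VIII, was at 5.29, 5.53 and 6.38 TPM after long-term PM2.5, 2.01, 3.63 and 2.64 TPM after short-term PM2.5 and 5.63, 4.98 and 4.84 TPM with PBS. Col20a1 was at 3.93, 4.31 and 4.40 TPM after long-term PM2.5, 2.59, 2.28 and 3.47 TPM after short-term PM2.5 and 4.28, 3.49 and 4.44 TPM with PBS, and its highest short-term library nearly reached the lowest PBS library. The type V chains were lower in every short-term library than in any PBS library, with 14.1, 15.3 and 18.2 TPM of Col5a1, 9.42, 22.9 and 18.4 TPM of Col5a2 and 1.52, 2.01 and 2.70 TPM of Col5a3 after short-term PM2.5. Col8a1 and Col23a1 were at 0.800, 2.68 and 1.87 TPM and at 29.1, 35.3 and 33.2 TPM after short-term PM2.5, also below all PBS libraries. Col6a1 and Col6a2, which form type VI monomers with Col6a3, were at 79.7, 133 and 123 TPM and at 75.8, 125 and 121 TPM after short-term PM2.5, against 183, 162 and 167 TPM and 186, 163 and 180.0 TPM with PBS. Their corrected changes were -0.22 ± 0.13 and -0.24 ± 0.12, which did not pass.

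The difference between long-term and short-term PM2.5 was tested directly. As deposited, 21 of 28 tested collagens were higher and 0 lower after long-term PM2.5, against 43.4% and 7.08% of all genes (50.5% in either direction). All long-term libraries lay above all short-term libraries for 23 collagens, against 50.2% of all genes, and below for 0, against 9.94%. After the correction 9 were higher and 3 lower, against 19.3% and 22.3% of all genes (41.6% in either direction), and these 9 had all passed as deposited. The median collagen difference was 0.71 as deposited and 0.23 corrected, against 0.41 and -0.03 for all genes.

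Col4a5 and Col4a3 led this comparison in both versions, at 2.09 ± 0.38 and 1.95 ± 0.42 as deposited and 1.37 ± 0.25 and 1.13 ± 0.28 corrected (limma adjusted p from 0.0020 to 0.0093). In long-term libraries Col4a5 was at 26.5, 23.8 and 23.2 TPM and Col4a4 at 31.7, 32.6 and 27.3 TPM, above every short-term library. Col14a1 followed, at 1.59 ± 0.18 and 0.82 ± 0.08 (limma adjusted p = 0.00021 and 7.0e-05), and then Col6a3, at 1.46 ± 0.26 and 0.72 ± 0.17, with 51.1, 49.4 and 40.9 TPM in long-term libraries. Its partners Col6a1, at 181, 193 and 162 TPM, and Col6a2, at 174, 192 and 155 TPM in long-term libraries, passed as deposited (0.70 and 0.72) and not corrected. In the fibrillar class, Col5a2 and Col27a1 passed in both versions, with corrected differences of 0.53 and 0.60. The 3 corrected decreases were in Col18a1 (-0.45 ± 0.10, limma adjusted p = 0.0045), Col23a1 (-0.45 ± 0.09, limma adjusted p = 0.0024) and Col8a1 (-0.38 ± 0.13, limma adjusted p = 0.042), and the last of these lost the call without any of 6 libraries. Col1a1 was 0.46 ± 0.12 higher as deposited (limma adjusted p = 0.011, and 0.053 without long-term replicate 2) and at -0.08 ± 0.11 corrected (limma adjusted p = 0.59), a change of sign.

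Chains that assemble into 1 molecule kept steady ratios in some pairs and not in others. Col4a1 to Col4a2 was 1.38 to 1.43 in long-term libraries, 1.29 to 1.44 in short-term libraries and 1.35 to 1.44 in PBS libraries. Likewise, Col6a1 to Col6a2 was 1.005 to 1.05 after long-term PM2.5, 1.012 to 1.06 after short-term PM2.5 and 0.930 to 0.995 with PBS. Both ratios spanned a narrower range than the levels of their genes. Col1a1 to Col1a2 was 0.893, 1.09 and 0.999 after long-term PM2.5, 1.98, 0.937 and 1.34 after short-term PM2.5 and 0.906, 0.787 and 1.07 with PBS. Type I collagen holds more α1 than α2 chains, and the highest ratio was in short-term replicate 1, the library with the strongest length trend. Col1a1 has a longer transcript than Col1a2 (5930 against 5348 nt). After the length and GC correction that library still held 235 TPM of Col1a1 and 125 TPM of Col1a2, and the cause of its ratio was not tested. Col6a3 to Col6a1 was 0.252 to 0.282 after long-term PM2.5, 0.122 to 0.172 after short-term PM2.5 and 0.229 to 0.270 with PBS. For Col4a3 to Col4a4 the ratio was 1.33 to 1.36 after long-term PM2.5, 0.446, 1.00 and 0.895 after short-term PM2.5 and 1.48 to 1.80 with PBS, so these 2 alveolar chains did not move in proportion. Levels within a ratio are per length, as TPM, and no test was run on ratios.

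The filter left 16 members untested. Among them 5 passed upward after long-term PM2.5 against PBS in a fit without the filter, against 1477 of the 18475 genes in that fit. These 5 were named after their values were seen. Col24a1, a fibrillar chain, was at 0.930, 0.690 and 0.870 TPM after long-term PM2.5, 0.0400, 0.1 and 0.0900 TPM after short-term PM2.5 and 0.190, 0.0900 and 0.150 TPM with PBS. Its lowest long-term library was above every other library (0.68 ± 0.06 against PBS, limma adjusted p = 0.00033 without the filter). Col28a1, a collagen with von Willebrand factor A domains, was at 0.760, 0.660 and 0.670 TPM after long-term PM2.5, 0.110, 0.0900 and 0.110 TPM after short-term PM2.5 and 0.240, 0.320 and 0.350 TPM with PBS (0.38 ± 0.05, limma adjusted p = 0.0017). Col6a5 was at 0.660, 0.930 and 0.570 TPM after long-term PM2.5, 0.0200, 0.260 and 0.0800 TPM after short-term PM2.5 and 0.270, 0.210 and 0.250 TPM with PBS. Col26a1 was at 0.730, 0.680 and 0.580 TPM after long-term PM2.5, 0.250, 0.350 and 0.120 TPM after short-term PM2.5 and 0.470, 0.240 and 0.140 TPM with PBS. Col9a1, a FACIT chain of cartilage, was at 0.600, 0.410 and 0.150 TPM after long-term PM2.5 and listed at 0 in all short-term and PBS libraries. At such levels a few reads decide a value, and the number of reads behind them is unknown. The remaining 11, among them the cartilage chains Col2a1, Col11a1 and Col10a1 at 0.170 TPM or less and Col4a6 at 0.590 TPM or less, did not pass against PBS after long-term PM2.5.

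**Figure D5:**
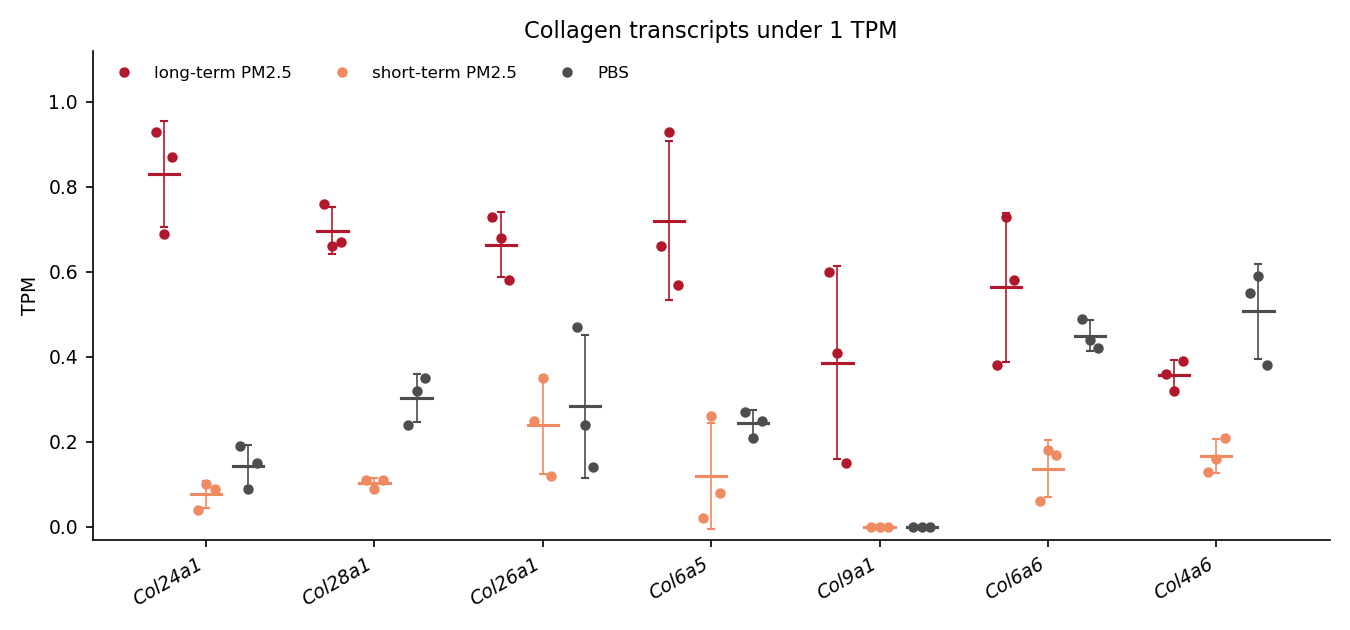
TPM (linear axis) of 7 collagen genes below 1 TPM in every library; each point is 1 library, bars give the mean and SD (n = 3), and the groups are long-term PM2.5, short-term PM2.5 and PBS. All long-term points of Col24a1, Col28a1, Col26a1, Col6a5 and Col9a1 lie above all PBS points, and those of Col6a6 and Col4a6 do not.

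The genes that make, modify and degrade collagen were read from lists chosen for this purpose. The shares of all genes to set beside their counts are those given above: 9.51% higher and 1.72% lower after long-term PM2.5 (13% and 12.8% corrected), and 11.7% higher and 40.3% lower after short-term PM2.5 (23.6% and 26% corrected). Of 22 hydroxylases and chaperones of the endoplasmic reticulum, 1 rose and 2 fell after long-term PM2.5 (median -0.09), and 1 rose and 5 fell corrected. P4ha3, a subunit of prolyl 4-hydroxylase, was at 3.77, 3.54 and 3.10 TPM after long-term PM2.5 and 1.73, 1.99 and 1.5 TPM with PBS (0.71 ± 0.17, limma adjusted p = 0.020). Serpinh1, the collagen chaperone HSP47, fell to 171, 211 and 192 TPM after long-term PM2.5, against 290.1, 276 and 252 TPM with PBS (-0.51 ± 0.12, limma adjusted p = 0.024). After short-term PM2.5, 3 of the 22 rose and 9 fell (8 and 8 corrected), and the deposited counts are near the shares of all genes.

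Of 11 tested procollagen proteinases and cross-linking enzymes, 0 changed after long-term PM2.5 as deposited, with 0 of them higher and 0 lower, and corrected 1 rose (Adamts2, which trims the N-terminal propeptide, 0.36 ± 0.09) and 1 fell (Pcolce2, an enhancer of C-terminal propeptide removal, -0.69 ± 0.15). After short-term PM2.5, 4 fell as deposited, and 3 rose and 1 fell corrected, with Pcolce2 at -2.12 ± 0.26 as deposited and -1.51 ± 0.15 corrected. Of 21 fibril-associated proteins, 0 rose and 1 fell after long-term PM2.5 (3 and 6 corrected), and 2 rose and 13 fell after short-term PM2.5 (3 and 11 corrected). Fibromodulin (Fmod), a proteoglycan on fibrils, fell after short-term PM2.5 by 1.46 as deposited and by 1.19 corrected.

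Collagen-degrading enzymes and their inhibitors had the highest median change of these lists in both comparisons with PBS, as deposited and corrected. Of 14 tested, 7 rose and 0 fell after long-term PM2.5 (median 0.50; 7 and 1 corrected), and 8 rose and 3 fell after short-term PM2.5 (median 0.60; 10 and 3 corrected). Mmp12, macrophage elastase, was at 201, 272 and 218 TPM after long-term PM2.5, 11, 26.5 and 13.2 TPM after short-term PM2.5 and 4.82, 5.43 and 4.87 TPM with PBS. Ctsk, cathepsin K, which cleaves the collagen triple helix, was at 226, 184 and 113 TPM after long-term PM2.5, 27.6, 51.9 and 42.5 TPM after short-term PM2.5 and 8.67, 12.2 and 12.8 TPM with PBS. Timp1, an inhibitor of matrix metalloproteinases, was at 90.2, 56.8 and 49.4 TPM after long-term PM2.5, 739.6, 648 and 443 TPM after short-term PM2.5 and 7.05, 10.9 and 8.74 TPM with PBS. Mmp12 and Ctsk were highest after long-term PM2.5 and Timp1 after short-term PM2.5, without overlap between any of the groups.

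As deposited, few basement membrane partners and receptors were called after long-term PM2.5, and most fell after short-term PM2.5. Of 17 tested basement membrane partners such as laminins, nidogens and perlecan, 0 rose and 0 fell after long-term PM2.5 in either version (median -0.18), and 0 rose and 15 fell after short-term PM2.5 (1 and 10 corrected). Of 9 collagen receptors, 1 rose after long-term PM2.5 (Adgrg1, 0.40 ± 0.11, limma adjusted p = 0.045). After short-term PM2.5, 0 of these receptors rose and 6 fell (2 and 5 corrected). In corrected values 2 rose and 2 fell after long-term PM2.5, with Ddr1, a collagen-binding receptor kinase, at 0.41 ± 0.08 (limma adjusted p = 0.0035). Of 16 genes of the TGF-beta pathway and fibroblast activation, 0 changed after long-term PM2.5 as deposited (1 rose corrected, the receptor gene Tgfbr1). After short-term PM2.5, 2 rose and 10 fell (5 and 4 corrected), with medians of -0.59 as deposited and -0.05 corrected. Among them the actin gene Acta2, of myofibroblasts and smooth muscle, was at 0.61 ± 0.10. Of 8 smooth muscle and pericyte markers, Acta2 included, 2 rose and 4 fell after short-term PM2.5 as deposited, and 3 rose and 1 fell corrected.

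Markers of the cells that make collagen moved with these groups as well, and their part in the collagen results was not tested. Of 8 fibroblast markers, 0 rose and 2 fell after long-term PM2.5 (Tcf21 and Inmt) and 0 rose and 7 fell after short-term PM2.5, both as deposited and corrected. Their summed level was 5243 to 5850.0 TPM after long-term PM2.5, 2984 to 4051 TPM after short-term PM2.5 and 6387 to 7276 TPM with PBS. Type I and III chains were higher after long-term PM2.5 in libraries where this marker sum was lower than in any PBS library. Of 8 endothelial markers, 5 fell as deposited and 8 corrected after long-term PM2.5, with sums of 2768 to 3075 TPM after long-term PM2.5, 3112 to 3587 TPM after short-term PM2.5 and 4046 to 4370.2 TPM with PBS. Of 6 alveolar type 1 cell markers, 1 fell after long-term PM2.5 (4 corrected), with sums of 5458 to 6056 TPM after long-term PM2.5, 6940.4 to 9565 TPM after short-term PM2.5 and 6939 to 7899 TPM with PBS. Col4a3, Col4a4 and Col4a5 were lowest in the short-term libraries, whose type 1 marker sums were in the range of PBS or above it, and 3 of these 6 markers fell and 2 rose there as deposited (median -0.03). Corrected, 3 fell and 1 rose (median -0.18), and the summed level was 5297 to 5808 TPM after long-term PM2.5, 6985 to 8585 TPM after short-term PM2.5 and 7523 to 8250.4 TPM with PBS. Macrophage markers rose in 5 of 6 after long-term PM2.5, with sums of 619 to 901 TPM after long-term PM2.5, 481 to 522 TPM after short-term PM2.5 and 231 to 263 TPM with PBS. No marker of these 4 lists was at 0 in all libraries. Markers of the labelled tissue were abundant. The 6 alveolar type 2 cell genes summed to 46505 to 49542 TPM after long-term PM2.5, 30041 to 35988.5 TPM after short-term PM2.5 and 44352 to 45575 TPM with PBS. Corrected, the sums were 45225 to 49839, 26449 to 33749 and 49127 to 54187 TPM in that order. By gene, 1 rose and 1 fell after short-term PM2.5 as deposited, and 4 rose and 1 fell corrected. The 8 cartilage genes summed to 0.48 to 1.84 TPM.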

How the data were processed

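Oligo(dT)-selected mRNA of whole lung was made into libraries with a DSN step (duplex-specific nuclease, which lowers abundant transcripts) and sequenced on DNBSEQ, per the labels' protocols. TPM cannot show whether DSN acted equally in all libraries. The submitters' processing notes name GRCm38.p6, RSEM, Bowtie2, HISAT2 and DESeq2, without roles or versions. The authors deposited 1 table of TPM values for 9 libraries and 18875 genes. Replicates follow the titles.

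The 3 groups were fitted together on log2(TPM + 1) with limma 3.58.1 (R 4.3.3), with eBayes moderation, an intensity trend and 6 residual degrees of freedom, for the 13991 genes that reached 1 TPM in 3 or more libraries; p-values are two-sided and were adjusted by Benjamini-Hochberg over these genes. The length and GC correction subtracts natural splines with 5 degrees of freedom each, fitted to the deviation of a library from the average over the 9 libraries, for all but 230 tested genes that have no length; lengths are those of the longest protein-coding transcript. Sums were compared with exact permutation tests in SciPy 1.17.1 (Python 3.11.15). The pipeline was tested on simulated data. Members, classes and companion lists were chosen with earlier results of these data known. Values per library are given for members that passed in any comparison and for a few abundant chains, and up to 3 genes with the smallest p are named from a companion list. Alternatives were another pseudocount, no filter, a mean of at least 5 TPM, median-ratio and quantile scaling, length correction alone, the 2 compared groups alone, a replicate block, no trend, and leaving out each library.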

Additional observations from a re-analysis of the deposited data

Results flagged for a closer look

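In 3 collagens every long-term library lay above every PBS library while every short-term library lay below every PBS library as deposited. Of all tested genes, 25.9% met the first condition and 45.8% the second. The share that met both was not counted, so the 3 cannot be set against it. Col14a1 and Col5a2 were singled out because long-term and short-term PM2.5 also differed in the direct limma test both as deposited and corrected. In the other, Col5a3, that difference was 0.76 as deposited (limma adjusted p = 0.0051) and 0.23 corrected, which did not pass (limma adjusted p = 0.12). The corrected short-term change of Col5a3 against PBS was 0.21 and did not pass (limma adjusted p = 0.14). Col14a1, a FACIT chain, was 1.59 higher (log2) after long-term than after short-term PM2.5, with 18.9, 18.0 and 16.7 TPM after long-term PM2.5, 3.80, 6.60 and 5.69 TPM after short-term PM2.5 and 13.2, 13.5 and 15.0 TPM with PBS. After the length and GC correction the difference was 0.82, and the changes against PBS were 0.35 and -0.47, each of which passed, the first of them not without PBS replicate 1 (limma adjusted p = 0.059). Col5a2, a type V chain, was 1.32 higher after long-term than after short-term PM2.5 and 0.53 higher in corrected values, in which its short-term change against PBS was -0.05 (limma adjusted p = 0.78). The PBS libraries are shared by both comparisons and match the long-term group in duration, so duration and dose number cannot be told apart for the short-term values.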

How the results depend on the processing

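Changes of sign came mostly from the correction for length. With the length and GC correction, 14 of 28 tested collagens were above 0 in short-term PM2.5 against PBS, and 1 as deposited. In long-term against short-term PM2.5, 16 were above 0 with it, and 28 as deposited. Collagens not called in either version turned too, Col3a1 to 0.38 and Col1a2 to 0.25 against PBS. Between the PM2.5 groups these were Col16a1 (-0.078), Col17a1 (-0.16), Col4a1 (-0.35) and Col4a2 (-0.37). The values below for both comparisons are of collagens called as deposited or corrected. The correction turned 11 of them against PBS and 8 between the PM2.5 groups. The first went to Col16a1 0.073, Col11a2 0.37, Col15a1 0.33, Col18a1 0.57, Col4a1 0.18, Col4a2 0.23, Col5a1 0.16, Col7a1 0.30, Col23a1 0.17, Col5a3 0.21 and Col20a1 0.12. The second went to Col11a2 -0.11, Col18a1 -0.45, Col5a1 -0.043, Col7a1 -0.11, Col8a1 -0.38, Col1a1 -0.082, Col23a1 -0.45 and Col20a1 -0.046. With correction for length alone the same genes were at Col16a1 0.14, Col11a2 0.43, Col15a1 0.42, Col18a1 0.65, Col4a1 0.27, Col4a2 0.31, Col5a1 0.26, Col7a1 0.38, Col23a1 0.27, Col5a3 0.28 and Col20a1 0.21 against PBS, and at Col11a2 -0.34, Col18a1 -0.66, Col5a1 -0.23, Col7a1 -0.34, Col8a1 -0.31, Col1a1 -0.27, Col23a1 -0.57 and Col20a1 -0.19 between the PM2.5 groups. Quantile normalization gave Col11a2 0.025, Col15a1 0.22, Col18a1 0.19 and Col20a1 0.0044 against PBS, and Col11a2 -0.14, Col18a1 -0.22, Col7a1 -0.057, Col8a1 -0.17, Col23a1 -0.15 and Col20a1 -0.14 between the PM2.5 groups. Median-ratio scaling gave Col15a1 0.059 and Col18a1 0.28 against PBS, and Col18a1 -0.33 and Col23a1 -0.24 between the PM2.5 groups. Without PBS replicate 1, Col18a1 after short-term PM2.5 was at 0.022. No collagen called in long-term PM2.5 against PBS, as deposited or corrected, changed sign. Some that were not called did, among them Col5a1 and Col18a1 (0.12 each with the correction). Col11a2, Col7a1, Col8a2 and Col20a1 fell below 0 in other alternatives, to -0.11, -0.20, -0.036 and -0.13 at the lowest.

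Counts of called collagens moved too. For long-term PM2.5 against PBS (2 in the report) there were 7 with no filter, 6 with median-ratio scaling, 10 with quantile normalization, 11 with the length and GC correction, 8 with length alone, 14 with the 2 groups alone and 1 to 12 without 1 library, highest without short-term replicate 1. After the correction (11) there were 7 to 15 without 1 library, lowest without long-term replicate 1. For short-term PM2.5 against PBS (22) there were 14 with median-ratio scaling, 14 with quantile normalization, 13 with the correction, 14 with length alone and 13 to 24 without 1 library. Between the PM2.5 groups (21) there were 12 with the correction and 9 with length alone. Over all genes, long-term PM2.5 against PBS (1571) had 920 calls at a mean of 5 TPM or more, 2583 with quantile normalization, 3547 with the correction, 2528 with length alone, 3881 with the 2 groups alone and 779 to 3155 without 1 library, and 1976 to 5039 without 1 library after the correction. Long-term against short-term PM2.5 had 4604 calls with length alone and 4469 to 9149 without 1 library. The log2 ratio of summed collagen TPM was -0.19 for long-term PM2.5 against PBS without Col1a1, Col1a2 and Col3a1. In short-term PM2.5 against PBS it was -0.20 with median-ratio scaling and 0.085 with the correction, and between the PM2.5 groups it was 0.23 and 0.035. The cause of these shifts was not tested beyond what each setting removes.

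Whether replicate numbers pair the libraries is unknown. Same-numbered deviations from the group means correlated from -0.29 to 0.26, which cannot settle it, since libraries of a group also differ in their length trends. With a replicate block, 1 collagen was called in the long-term and 18 in the short-term comparison with PBS, and 20 between the PM2.5 groups. The replicate block with the length and GC correction gave 10, 14 and 13, and 2995 called genes over all genes for long-term PM2.5 against PBS, with the same changes of sign as the correction. The limits are the unknown depth of TPM, 3 libraries a group, no short-term control and length trends that a smooth correction removes only on average over genes.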
